A study of Mus musculus with 14 samples.

Results

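The cytosines described here lie between genes, at least 10000 bp from the nearest transcript start that the deposited table lists. They were chosen as the rows on chromosomes 1 to 19 that the table flags as outside promoters, exons, introns, CpG islands and elements upstream of genes, with that distance or more. The rule itself uses no methylation value, though it was set with earlier results of these data known. The rule found 13466 of the 75761 cytosines in the table, or 17.8%, and they are called distant intergenic sites below. Their distance to the nearest start ran from 10002 to 1171464 bp, with a median of 50887 bp, and the farthest intergenic site left out lay at 9999 bp.

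Reduced-representation bisulfite sequencing (RRBS) was used to read DNA methylation in the mammary fat pad opposite the injected one in 14 female wild-type C57BL/6N mice (C57BL/6NCrl in the study's methods) of 4 groups. CON-LFD mice (n = 3) ate the control diet D12450J throughout, DIO-HFD mice (n = 4) stayed on D12492, a high-fat diet (60%), DIO-LFD mice (n = 3) were made obese on D12492 and then lost weight on a low-fat diet, and DIO-VSG mice (n = 4), also made obese on D12492, lost weight by vertical sleeve gastrectomy with the low-fat diet. The first 3 of these groups had sham surgery, and every mouse was injected with E0771 mammary cancer cells in a mammary fat pad at week 22. The labels also enter E0771 and mouse mammary cancer as the cell line and cell type of these samples, while their tissue is given as contralateral normal mammary tissue, and the presence of tumor cells was not tested. The pad holds adipocytes, epithelium, vessels and immune cells, so a change in the share of a cell type and a change of methylation within cells cannot be told apart.

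Between genes, most CpGs of a mouse tissue are highly methylated. Much of that DNA is made of copies of retrotransposons. A common one is LINE-1, which encodes its own reverse transcriptase and whose full-length copies begin with a promoter built of repeated units rich in CpG. Methylation of this promoter is a main way in which somatic tissues keep LINE-1 silent. RRBS cuts DNA with MspI at CCGG and reads short fragments, so it samples CpG-rich stretches even in gene-poor regions.

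The position label was checked against a second annotation, GENCODE M21, on mm10. Of the 13466 sites, 1023 (7.60%) lay inside a gene body of GENCODE M21, 2162 (16.1%) lay under 10000 bp from a transcript start in it and 525 lay under 2 kb from one. The sites are thus intergenic by the table's own gene models. The mm10 sequence placed 13463 sites at a CpG and 3 elsewhere. It marked 10127 sites (75.2%) as repeat by lower-case masking, and 2922 (21.7%) lay within CCGG, against 32.7% of all sites in the table. The most sites were on chromosome 4 (1198) and the fewest on chromosome 19 (232). For the tests, 12666 sites (94.1%) had a standard deviation of the level of at least 0.05 across mice, and 9843 of those were masked. The other 800 had a mean level of 75.2%, with 521 above 80% and 70 below 20%.

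Tested sites were compared with each other by the window of 50 bases on each side of them, and sites were linked where at least 80 bases aligned at 90% identity or more. The 4 largest linked groups held 8232 sites (65.0% of those tested). Sequence group 1 held 3620 sites in 1171 separate places, sequence group 2 held 2489 in 2024 places, sequence group 3 held 1130 in 488 and sequence group 4 held 993 in 266. The next group held 200 sites, and 1987 sites (15.7%) resembled no other. For each of the 4, the window that resembled most others is shown from the mm10 forward strand, with the measured CpG in capitals. The windows lie at chr7:59092250-59092350, chr15:70452038-70452138, chr12:63570207-63570307 and chr8:5302615-5302715.
Sequence group 1: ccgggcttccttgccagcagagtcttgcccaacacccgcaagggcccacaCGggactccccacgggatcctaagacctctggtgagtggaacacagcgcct
Sequence group 2: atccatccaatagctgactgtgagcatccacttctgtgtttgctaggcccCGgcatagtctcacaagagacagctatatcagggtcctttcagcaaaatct
Sequence group 3: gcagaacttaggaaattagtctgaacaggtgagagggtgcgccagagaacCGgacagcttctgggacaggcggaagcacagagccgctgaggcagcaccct
Sequence group 4: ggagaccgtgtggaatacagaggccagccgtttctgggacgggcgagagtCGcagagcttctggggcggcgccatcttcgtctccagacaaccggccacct

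The DNA within 8000 bp of these places was searched for reading frames of at least 1000 codons without a stop, and a long frame was found at 431 of 1171 places of sequence group 1, 252 of 488 of sequence group 3 and 66 of 266 of sequence group 4. At places with no masking the share was 25 of 1103. In sequence groups 1, 3 and 4 the site lay upstream of the frame in 425, 249 and 66 of those cases, by a median of 1699, 1786 and 1742 bp. The commonest frame length was 1300 codons in each, and 419, 250 and 63 of the frames held the residues FADD, the catalytic core of LINE-1 reverse transcriptase. Where a long frame was found, sequence groups 1, 3 and 4 thus had the layout of the start of a full-length LINE-1 copy. That was at 36.8%, 51.6% and 24.8% of their places, and the other places were put in these groups by likeness of sequence alone. The whole groups are called LINE-1-start-like on that basis. In sequence group 2 a long frame was found at 91 of 2024 places, 82 of them with FADD, and the site lay downstream of it in 68, by a median of 548 bp. That is the layout of the far end of a LINE-1 copy, and most such places had no long frame within reach. The LINE-1-start-like groups were dense in CpG, with medians of 15, 17 and 19 CpGs in the window of 150 bases on each side of a site. Sequence group 2 had a median of 4, and 46.9% of its sites were in CCGG against 10.9% of sequence group 1. Repeat copies of near-identical sequence can exchange reads on alignment, so a level at 1 copy may carry reads of others, and that was not tested.

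The sites that the tests singled out are shown next with 30 bases on each side, again from the mm10 forward strand with the CpG in capitals. They are named by the nearest gene, which is a position and not a target. The Slc8a1 site (chr17:81684298-81684358) was in sequence group 3, the Gm24369 site (chr14:109917785-109917845) and the Mroh2b site (chr15:4862160-4862220) in sequence group 1, and the Gm23036 site (chr1:102628839-102628899) in sequence group 2.
Slc8a1 site: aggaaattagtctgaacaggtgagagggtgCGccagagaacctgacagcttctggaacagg
Gm24369 site: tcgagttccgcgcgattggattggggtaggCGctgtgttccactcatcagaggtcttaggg
Gm23036 site: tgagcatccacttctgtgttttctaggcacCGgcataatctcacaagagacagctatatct
Mroh2b site: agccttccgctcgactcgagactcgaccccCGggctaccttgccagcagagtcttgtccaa

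Distant intergenic sites were the most highly methylated of the position classes compared. The mean level over the 12666 tested sites was 80.97%, 80.6% and 78.9% in the CON-LFD mice and 82.1%, 75.8%, 72.5% and 74.6% in the DIO-HFD mice. It was 80.7%, 78.9% and 79.6% in the DIO-LFD mice and 81.2%, 80.5%, 81.2% and 81.3% in the DIO-VSG mice. DIO-HFD replicates 2, 3 and 4 were thus below every other mouse, and DIO-HFD replicate 1 was above every other mouse, so DIO-HFD overlapped all other groups. In every mouse the level was above that of intron sites outside promoters and islands, by 9.9 to 15.3 percentage points, and above that of intergenic sites nearer than 10000 bp, by 14.5 to 17.3 points. By group the mean was 80.1% ± 1.13 in CON-LFD (SD, n = 3), 76.3% ± 4.14 in DIO-HFD (n = 4), 79.7% ± 0.92 in DIO-LFD (n = 3) and 81.1% ± 0.37 in DIO-VSG (n = 4). Read counts were not part of the table, and how deeply each site was read is therefore unknown. The DIO-HFD mean was below the others by 3.88 points (CON-LFD), 3.48 (DIO-LFD) and 4.80 (DIO-VSG), and without DIO-HFD replicate 1 by 5.83, 5.44 and 6.75 points with no overlap. Over all tested sites the same differences were 3.33, 3.43 and 4.89 points, and 5.52, 5.62 and 7.08 without that mouse.

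The height of this class went in part with its repeats. Masked sites had a mean level of 85.3% ± 0.65 in CON-LFD, 81.5% ± 3.826 in DIO-HFD, 84.7% ± 0.50 in DIO-LFD and 85.8% ± 0.28 in DIO-VSG mice, and the 2823 unmasked sites 62.2% ± 2.90, 57.9% ± 5.75, 62.4% ± 2.42 and 64.5% ± 0.78. Masked sites were higher in all 14 mice, by 20.1 to 27.1 points. Among unmasked sites alone, distant intergenic sites were below intron sites in all 14 mice, with differences of -2.54 to -0.68 points, and below exon sites in all 14, with -6.76 to -5.22 points. They were above unmasked intergenic sites nearer than 10000 bp in all 14, by 4.85 to 6.62 points. Among masked sites, distant intergenic sites were above those of introns by 2.29 to 3.57 points, of exons by 11.1 to 18.6 points and of nearer intergenic DNA by 2.99 to 4.57 points, again in all 14 mice. Repeats made up 77.7% of the distant intergenic sites tested, 22.3% of intron sites, 2.08% of exon sites and 31.4% of nearer intergenic sites. Intergenic copies of sequence group 1 differed from the 1018 intron sites of that group by -0.85 to 0.12 points in a mouse, and those of sequence group 2 from its 867 intron sites by -2.97 to -1.12 points. For sequence groups 3 and 4 the differences were -1.73 to -0.60 and -3.46 to -1.30 points.

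**Figure D1:**
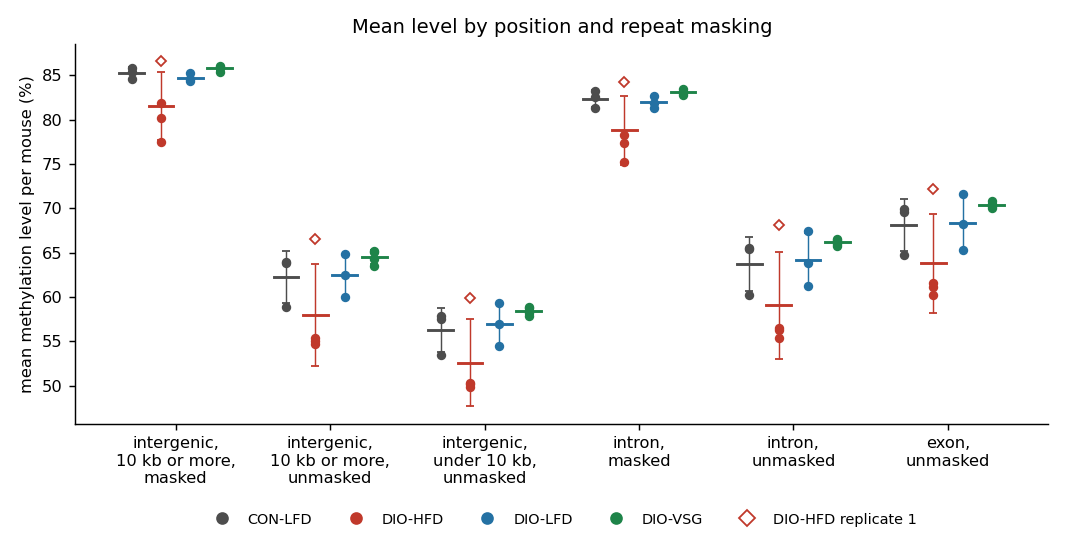
Mean methylation level per mouse (%) over tested sites, split by position and by repeat masking in mm10; each point is a mouse, the bar is the group mean and the error bar its SD (n = 3 or 4). Masked intergenic sites sit between 77.5% and 86.6%, and unmasked ones between 54.7% and 66.5%, with DIO-HFD replicate 1 (open diamond) on top in both.

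Among masked sites the level went less with distance than over all distant intergenic sites. Masked sites over 200 kb from a start exceeded those at 10 to 50 kb in all 14 mice, by 0.6 to 1.9 points, whereas the unsplit classes differed by 7.85 to 11.05 points. Unmasked sites over 200 kb were also higher, by 7.6 to 10.8 points, with 44 tested. The 536 unmasked sites at 50 to 200 kb had a mean level of 67.3% ± 2.01 over the 10 low-fat-fed mice (SD), against 62.1% ± 2.19 for the 2243 at 10 to 50 kb. Sites just inside and just outside the distance rule were alike: 645 at 10 to 12 kb had a mean level of 69.6% and 735 at 8 to 10 kb of 67.98%, with 51.8% and 45.3% masked.

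The bases beside the CpG and the cutting site also went with the level. Masked sites with A or T on neither side of the CpG were above those with A or T on both sides in all 14 mice, by 8.7 to 12.6 points. Among unmasked sites the same difference was 1.5 to 5.4 points. Sites within CCGG were above the others by 5.1 to 7.1 points, and within sequence group 2 by 13.3 to 17.8 points. These are differences between sets of sites within each mouse and are given with no test. Every site within CCGG has A or T on neither side, so the features overlap, and neither was compared with the other held fixed.

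DIO-HFD replicates 2 to 4 were low in each of the 4 sequence groups, by differing amounts. In sequence group 1 the levels were 88.4%, 87.9% and 87.0% in CON-LFD, 88.9%, 84.2%, 80.3% and 82.97% in DIO-HFD, 88.1%, 86.4% and 87.5% in DIO-LFD, and 88.5%, 88.2%, 88.7% and 88.6% in DIO-VSG mice. In sequence group 2 they were 82.7%, 82.5% and 81.5%, then 83.6%, 79.0%, 71.3% and 75.4%, then 81.1%, 81.7% and 81.04%, and 83.1%, 81.7%, 83.1% and 82.8%. DIO-HFD replicates 2, 3 and 4 were below all other mice in both. The same 3 mice were below all others in sequence group 3 (83.8%, 80.6% and 82.1%, against 85.03% to 87.2%) and in sequence group 4 (82.0%, 80.1% and 81.2%, against 84.96% to 87.5%).

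**Figure D2:**
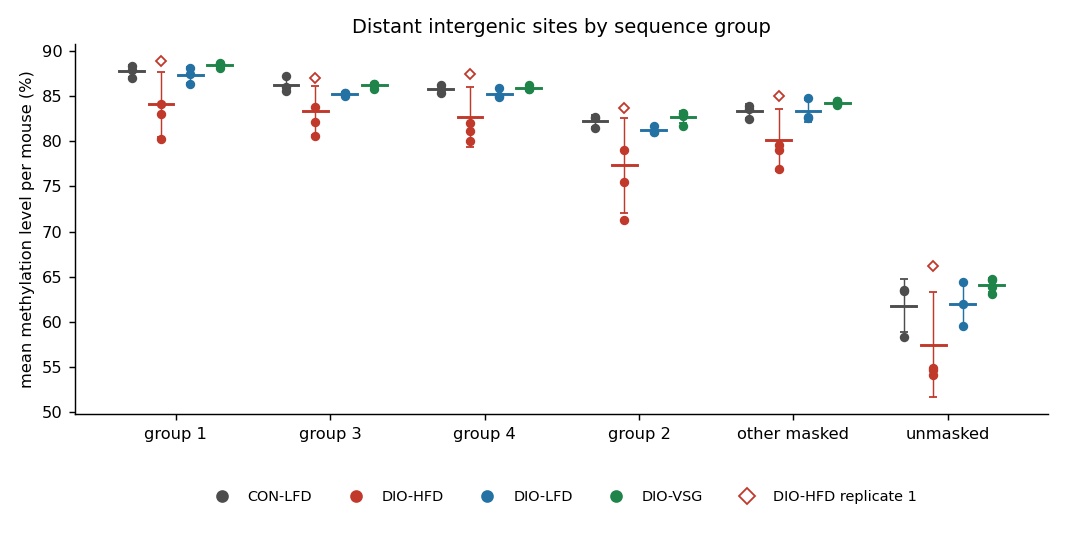
Mean level per mouse (%) of distant intergenic sites in each sequence group, in other masked sequence and in unmasked sequence; points are mice, bars group means and error bars SD (n = 3 or 4). In every class DIO-HFD replicates 2 to 4 sit below all other mice, and replicate 1 is within or above the others.

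The order of the DIO-HFD mice depended on the sequence. Against the mean of the 10 low-fat-fed mice, replicates 2, 3 and 4 differed by -8.49, -8.14 and -7.86 points over unmasked sites, close to one another. Over masked sites they differed by -3.47, -7.83 and -5.15 points, and over sequence group 2 by -3.12, -10.84 and -6.66 points. Replicate 3 was thus the lowest mouse over all masked sites, while replicate 2 was the lowest, by little, over all unmasked sites. Sequence group 2 in introns gave -2.82, -10.10 and -5.37 points, the same order. Replicate 1 was higher than the low-fat-fed mean by 3.32 points over unmasked sites and 1.27 over masked ones. The SD of the 10 low-fat-fed mice was 2.15 points over unmasked sites, 0.64 over masked sites and 0.80 over sequence group 2. Sequence group 2 outside CCGG gave -4.04, -12.08 and -8.19 points in replicates 2, 3 and 4. Unmasked sites with A or T on both sides of the CpG gave -9.16, -9.68 and -8.88, so there replicate 3 was the lowest in unmasked sequence too.

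**Figure D3:**
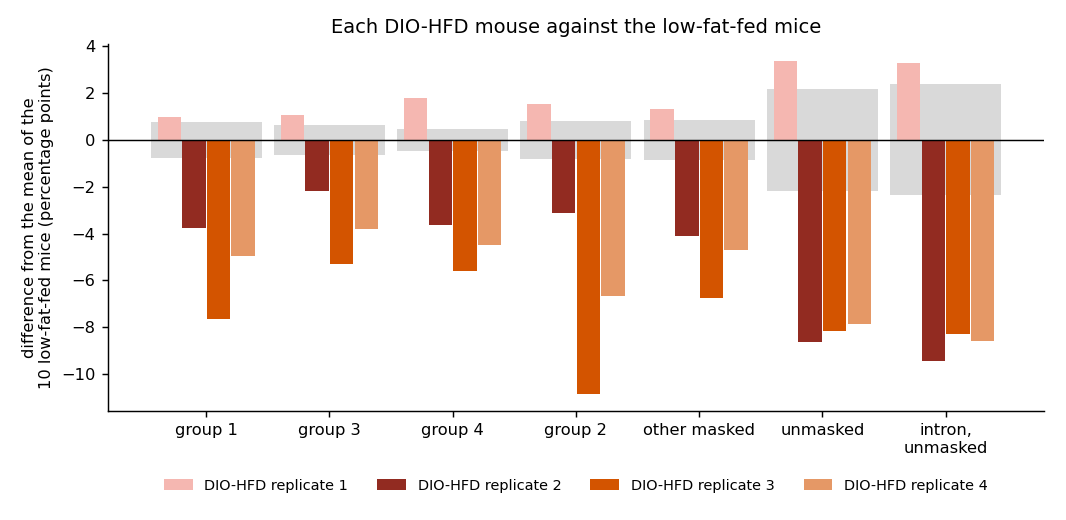
Difference (percentage points) of each DIO-HFD mouse from the mean of the 10 low-fat-fed mice, by sequence class of the distant intergenic sites and for unmasked intron sites; gray bands are 1 SD of the low-fat-fed mice on either side. Replicate 3 falls farthest in sequence group 2 (-10.84), while replicates 2 to 4 are level in unmasked sequence.

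The gap was widest at sites of 40 to 80%, among the bins compared. The 882 sites with a mean level of 40 to 60% in the low-fat-fed mice differed by -7.77, -8.59 and -8.45 points in DIO-HFD replicates 2, 3 and 4. The 2444 sites at 60 to 80% differed by -7.499, -11.12 and -8.52 points. The 4930 sites at 90% or more (95.5% masked) differed by -3.24, -7.15 and -4.54 points, and the 474 sites at 20 to 40% by -1.70, -1.81 and -2.51 points. The 219 sites under 20% (16.4% masked) were higher in the same mice, by 1.81, 3.32 and 1.37 points. The bins were cut from the low-fat-fed levels, so part of this pattern can come from the cut itself. The share of sites at 80% or more was 68.3%, 65.8% and 63.3% in CON-LFD, 70.0%, 54.4%, 43.8% and 50.5% in DIO-HFD, 67.5%, 61.4% and 64.5% in DIO-LFD, and 68.5%, 67.5%, 68.5% and 68.2% in DIO-VSG mice. The sites at 80% or more were fewest in DIO-HFD replicates 2 to 4. In these mice the share under 20% was 2.87%, 2.79% and 2.83%, against 1.72% to 2.10% in the other mice.

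**Figure D4:**
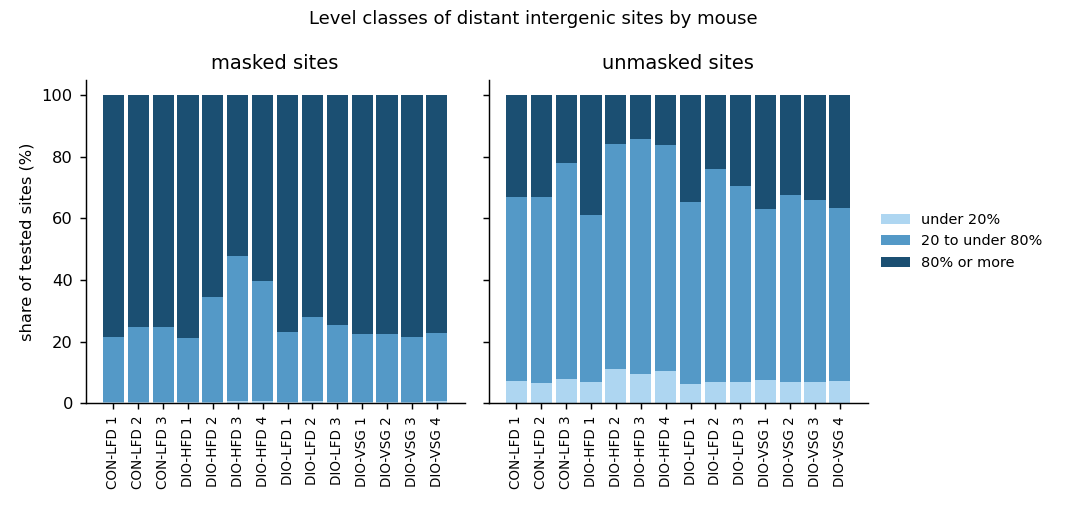
Share (%) of tested distant intergenic sites under 20%, at 20 to under 80% and at 80% or more in each of the 14 mice, for masked (left) and unmasked (right) sequence. Among masked sites 52.2% were at 80% or more in DIO-HFD replicate 3, against 72.1% to 78.4% in the low-fat-fed mice.

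The comparison of CON-LFD with DIO-HFD mice asks what lasting obesity went with. DIO-HFD mice still ate the high-fat diet, while all other mice ate a low-fat diet. Obesity and current diet therefore cannot be told apart in the comparisons with DIO-HFD. By limma over all 65610 tested sites, 0 distant intergenic sites passed an adjusted p of 0.05 (Benjamini-Hochberg), as over the whole table (0.0%). At an unadjusted p under 0.05 there were 1082 (8.54%) against 7.76% of all sites, 915 higher in CON-LFD (6.0% of all sites were) and 167 lower (1.76% of all). Groups did not overlap at 739 sites (5.83%, against 4.68% of all sites), 643 with CON-LFD higher (5.08%, against 3.283% of all) and 96 with it lower (0.758%, against 1.401%). The median difference was 4.09 points, against 3.721 over all tested sites. Without DIO-HFD replicate 1, 790 sites passed (6.24%, against 12% of all sites). CON-LFD was higher at 685 of them, a smaller share of the distant intergenic sites tested than the 9.67% over all sites. Replicate 1 was singled out by its own levels. Counts and adjusted p-values without it show how far results rest on that mouse and are no test of the groups.

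The comparison of DIO-LFD with DIO-HFD mice asks what went with weight loss by diet. Again 0 distant intergenic sites passed by limma, against 0.00305% of all sites, and 1108 had an unadjusted p under 0.05 (8.75%, against 10.1%), 937 higher in DIO-LFD (7.92% of all sites were) and 171 lower (2.16% of all). Groups did not overlap at 642 sites (5.07%, against 4.8%), 548 with DIO-LFD higher (4.33%, against 3.362% of all) and 94 with it lower (0.742%, against 1.436%). The median difference was 3.65 points, against 3.814 over all tested sites. Without DIO-HFD replicate 1, 867 passed (6.85%, against 14.6% of all sites). DIO-LFD was higher at 760 of them, a smaller share of the distant intergenic sites tested than the 12.1% over all sites.

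The comparison of DIO-VSG with DIO-HFD mice asks what went with weight loss after surgery. By limma 1 distant intergenic site passed, the Gm23036 site, against 0.00305% of all sites, and 2319 had an unadjusted p under 0.05 (18.3%, against 25.0%), 2015 higher in DIO-VSG (20.2% of all sites were) and 304 lower (4.85% of all). Groups did not overlap at 816 sites (6.44%, against 7.58%), 719 with DIO-VSG higher (5.68%, against 5.549% of all) and 97 with it lower (0.766%, against 2.035%). The median difference was 4.94 points, against 5.40 over all tested sites. Of the 2765 unmasked sites outside the 4 sequence groups 32.2% had an unadjusted p under 0.05 with a median difference of 7.19 points, and intron sites gave 32.2% and 7.19 points. In the LINE-1-start-like groups the share was 12.6% and the median 4.12 points, and in sequence group 2 they were 16.7% and 5.44 points. Without DIO-HFD replicate 1, 2444 sites passed (19.3%, against 34.4% of all sites). DIO-VSG was higher at 2179 of them, a smaller share of the distant intergenic sites tested than the 28.8% over all sites. Calls in either direction came to 45.9% of unmasked sites outside the groups and 11.8% of masked ones. With each mouse centred on its median, the share of sites higher among those under an unadjusted p of 0.05 was 65.2%, 61.1% and 50.8% in these 3 comparisons, in place of 84.6%, 84.6% and 86.9%. The 3 comparisons share the DIO-HFD mice.

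DIO-VSG and DIO-LFD mice were also set against each other. By limma 2 distant intergenic sites passed, those near Gm23036 and Mroh2b, against 0.00305% of all sites, and 679 had an unadjusted p under 0.05 (5.36%, against 3.98%), 452 higher in DIO-VSG (2.42% of all sites were) and 227 lower (1.55% of all). Groups did not overlap at 864 sites (6.82%, against 7.74%), 602 with DIO-VSG higher (4.75%, against 4.929% of all) and 262 with it lower (2.07%, against 2.807%). The median difference was 1.28 points, against 1.71 over all tested sites. The mean levels of the mice overlapped over all distant intergenic sites, whereas over masked sites every DIO-VSG mouse was above every DIO-LFD mouse, by 1.1 points in the mean. Without DIO-HFD replicate 1 in the model 2 sites passed, against 0.00457% of all sites, 1 of them higher in DIO-VSG (0.00152% of all). With centring, 43.4% of the sites under an unadjusted p of 0.05 were higher in DIO-VSG, in place of 66.6%.

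The Gm23036 site, on chromosome 1 at position 102628869 and 214849 bp from that predicted gene, lay in a masked CCGG. Its level was listed as 100% in all 4 DIO-VSG mice. It was 82.4%, 81.8%, 76.2% and 76.2% in DIO-HFD, 90.2%, 87.5% and 87.0% in CON-LFD and 86.5%, 80% and 95% in DIO-LFD mice. DIO-VSG mice were above every other mouse. The difference of M, the log2 ratio of the methylated to the unmethylated share, was 4.77 (SE 0.38) against DIO-HFD by limma, with an adjusted p of 0.000349, and over all settings the adjusted p ran from 1.2e-05 to 0.074. Against DIO-LFD it was 3.8098 (SE 0.41) with an adjusted p of 0.0251 by limma, from 0.000141 to 0.963 over the settings, and without DIO-VSG replicate 3 it was 0.0771.

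The Mroh2b site, on chromosome 15 at position 4862190 and 36547 bp from Mroh2b, also lay in a masked CCGG. It was listed at 100% in the 3 DIO-LFD mice and at 83.3%, 90%, 85.7% and 91.7% in DIO-VSG, 94.7%, 93.3%, 92.3% and 81.8% in DIO-HFD, and 85%, 71.4% and 87.0% in CON-LFD mice. DIO-LFD mice were above every other mouse. M fell by 3.88 (SE 0.47) from DIO-LFD to DIO-VSG, with an adjusted p of 0.0460 by limma, from 0.0183 to 0.963 over the settings, and without DIO-VSG replicate 3 it was 0.140. Levels listed at 100% set the size of M through the offset, and the read count behind them is unknown.

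The sites with the smallest p in the comparisons where none passed were those near Slc8a1 and Gm24369. The Slc8a1 site, on chromosome 17 at position 81684328, is 34722 bp from the listed start of this sodium/calcium exchanger and inside its GENCODE M21 gene body. It was 97.4%, 100% and 100% in CON-LFD and 89.5%, 80.95%, 78.9% and 76.9% in DIO-HFD mice, with no overlap and an adjusted p of 0.110 by limma, from 0.00409 (without DIO-HFD replicate 1) to 0.604 over the settings. In DIO-LFD it was 94.6%, 94.4% and 95.8%, and in DIO-VSG mice 92.1%, 96.1%, 94.0% and 94.1%. The Gm24369 site, on chromosome 14 at position 109917815, was listed at 100% in all 4 DIO-HFD mice, 88.9%, 84.6% and 91.4% in DIO-LFD, 97.4%, 85.7% and 89.3% in CON-LFD and 91.1%, 93.8%, 96.7% and 93.8% in DIO-VSG mice. The adjusted p against DIO-LFD was 0.0600 by limma, from 0.0045 (without CON-LFD replicate 1) to 0.531 over the settings. Here the DIO-HFD mice, replicate 1 included, were the highest.

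Neighbouring sites were averaged into regions of 3 or more tested sites with gaps of at most 500 bp, which gave 1458 regions made wholly of distant intergenic sites out of 7570. By limma 0 of them passed an adjusted p of 0.05 in any of the 4 comparisons (0.0% of all regions in each). At an unadjusted p under 0.05 there were 197 for CON-LFD against DIO-HFD (13.5%, against 10% of all regions), 160 for DIO-LFD (10.97%, against 12%), 426 for DIO-VSG (29.2%, against 38.5%) and 65 between DIO-VSG and DIO-LFD (4.46%, against 2.55%). Groups did not overlap in 85 regions with CON-LFD above DIO-HFD (5.83%, against 2.63%) and 7 below (0.48%, against 1.07%), and in 68 with DIO-LFD above (4.66%, against 2.76%) and 5 below (0.343%, against 0.964%). They did not overlap in 93 with DIO-VSG above DIO-HFD (6.38%, against 5.07%) and 10 below (0.686%, against 2.03%), and in 76 with DIO-VSG above DIO-LFD (5.21%, against 5.2%) and 29 below (1.99%, against 3.04%). Without DIO-HFD replicate 1, 367, 323 and 625 regions passed in the comparisons with DIO-HFD, or 25.2%, 22.2% and 42.9%, against 36.6%, 37.0% and 56.4% of all regions. Of the 1458 regions, 340, 299 and 583 passed without that mouse and with the first group higher. Over all 7570 regions the shares that did so were larger, at 31.0%, 31.6% and 48.0%. In the comparison of DIO-VSG with DIO-HFD, 50.6% of the 269 unmasked regions had an unadjusted p under 0.05, with a median difference of 8.49 points, and of the 1089 masked regions 23.0%, with a median of 3.78 points.

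The largest region held 22 sites on chromosome 11 from 117888311 to 117889361, 14853 bp from Tha1, which encodes a threonine aldolase, and 4.5% of its sites were masked. Its mean level was 72.7%, 37.3%, 42.3% and 42.7% in DIO-HFD, 61.6%, 67.7% and 49.3% in CON-LFD, 67.5%, 49.7% and 57.3% in DIO-LFD, and 67.5%, 63.7%, 65.9% and 66.7% in DIO-VSG mice. DIO-HFD replicates 2 to 4 were below all other mice and replicate 1 was the highest of the 14. The adjusted p of DIO-VSG against DIO-HFD was 0.107 by limma, and 0.00101 without DIO-HFD replicate 1.

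The other 2 regions among the 10 largest that were mainly unmasked were those near Fgfr3 and 1700031F10Rik. Each is shown by the short stretch that holds most of its tested sites, from the mm10 forward strand with every tested CpG in capitals. The stretch near Fgfr3, which encodes a fibroblast growth factor receptor, lies at chr5:33700160-33700442 and holds 10 tested sites. The stretch near 1700031F10Rik lies at chr6:88236118-88236365 and holds 9, and its region meets the protein-coding gene Dnajb8 in GENCODE M21.
Fgfr3 region: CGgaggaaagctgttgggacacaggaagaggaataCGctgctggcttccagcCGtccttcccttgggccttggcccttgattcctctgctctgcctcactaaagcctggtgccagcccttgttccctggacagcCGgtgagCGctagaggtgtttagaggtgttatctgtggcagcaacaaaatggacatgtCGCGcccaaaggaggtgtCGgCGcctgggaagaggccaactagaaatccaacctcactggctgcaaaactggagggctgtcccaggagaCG
1700031F10Rik region: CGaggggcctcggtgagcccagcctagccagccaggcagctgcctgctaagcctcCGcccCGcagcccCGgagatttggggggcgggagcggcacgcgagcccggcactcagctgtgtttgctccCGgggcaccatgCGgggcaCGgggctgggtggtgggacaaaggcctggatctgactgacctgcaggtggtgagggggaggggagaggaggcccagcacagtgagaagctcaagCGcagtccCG

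The Fgfr3 region (15 sites) had 67.5%, 35.99%, 45.3% and 41.1% in DIO-HFD and 65.9%, 66.5%, 63.5% and 65.5% in DIO-VSG mice, with 66.9%, 66.4% and 45.6% in CON-LFD and 71.8%, 49.5% and 60.0% in DIO-LFD mice. The 1700031F10Rik region (15 sites) had 57.7%, 40.1%, 37.1% and 37.5% in DIO-HFD and 53.6%, 55.0%, 52.9% and 52.7% in DIO-VSG mice. In both, replicate 1 alone made DIO-HFD overlap DIO-VSG. Near Fgfr3 replicate 1 was below DIO-LFD replicate 1, and DIO-HFD replicate 3 was level with CON-LFD replicate 3. The adjusted p of DIO-VSG against DIO-HFD was 0.0987 and 0.102 by limma, and 0.00397 and 0.000762 without that mouse.

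The other 7 of the 10 largest regions lay in LINE-1-start-like sequence and 95% or more of their sites were masked. As in the 3 unmasked regions, DIO-HFD overlapped DIO-VSG in all 7. Without DIO-HFD replicate 1 the adjusted p of DIO-VSG against DIO-HFD by limma was 0.00237 near 1700030N18Rik, 0.00988 near St6gal2, 0.0108 near Fibin and 0.0196 near Lrrc7, and in these 4 replicates 2 to 4 lay below all DIO-VSG mice. It was 0.259 near Gm26454, 0.535 near Gm43994 and 0.0579 near Gm44476. The region of 20 sites nearest Gm26454 had 84.3%, 78.7%, 69.8% and 72.9% in DIO-HFD and 75.1%, 77.9%, 81.7% and 78.3% in DIO-VSG mice, and that of 18 sites nearest Gm43994 had 93.3%, 87.8%, 92.4% and 87.7% and 91.8%, 89.2%, 89.4% and 91.9%. The region of 17 sites nearest Lrrc7, a gene for a protein of synapses, had 86.7%, 82.6%, 83.5% and 81.9% in DIO-HFD and 85.3%, 89.03%, 87.4% and 87.6% in DIO-VSG mice.

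The regions with the smallest p in a comparison with DIO-HFD were small, with 3 to 6 sites, and all of them were masked and LINE-1-start-like. The region near Snrpb2, a gene for a splicing protein, lies on chromosome 2 from 143043064 to 143043179 and had 86.5%, 88.6%, 82.6% and 87.2% in DIO-HFD mice. All other mice had more, with 93.8%, 94.4% and 94.0% in CON-LFD, 95.2%, 90.6% and 94.9% in DIO-LFD and 91.6%, 93.9%, 95.6% and 91.4% in DIO-VSG mice. Its adjusted p was 0.462, 0.407 and 0.0914 against CON-LFD, DIO-LFD and DIO-VSG by limma. The Gm23848 region on chromosome 15 had 80.7%, 84.2%, 76.2% and 80.2% in DIO-HFD, 86.8%, 96.1% and 93.9% in CON-LFD, 84.4%, 84.8% and 91.1% in DIO-LFD and 93.0%, 90.8%, 92.2% and 94.2% in DIO-VSG mice. In both regions replicate 1 sat with the other DIO-HFD mice. The Olfr1301 region, near an olfactory receptor gene, had 80.1%, 85.7% and 84.4% in CON-LFD and 73.6%, 70.4%, 61.9% and 67.7% in DIO-HFD mice, with an adjusted p of 0.462 by limma. The Gm25485 region was higher in CON-LFD (92.9%, 94.4% and 89.8%) than in DIO-HFD mice (87.8%, 83.1%, 81.6% and 81.6%) and lower in DIO-LFD mice (80.2%, 77.6% and 76.7%) than in either, with adjusted p-values of 0.462 and 0.407 against DIO-HFD.

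**Figure D5:**
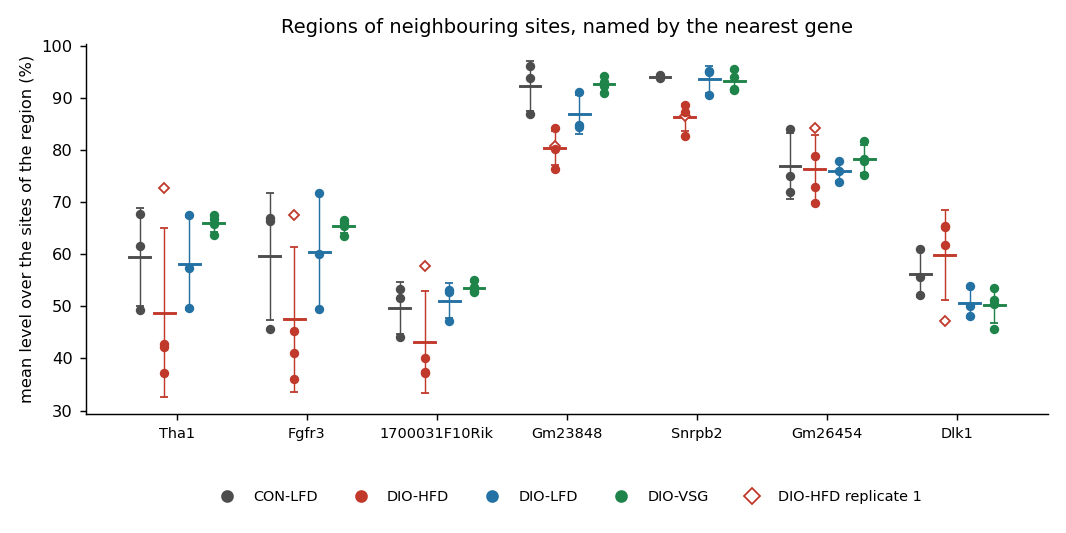
Mean level per mouse (%) over the sites of 6 regions and of the 5-site run near Dlk1, named by the nearest gene; points are mice, bars group means and error bars SD (n = 3 or 4). DIO-HFD replicate 1 (open diamond) is far above the other DIO-HFD mice near Tha1 (72.7% against 37.3% to 42.7%), among them near Snrpb2, and below them near Dlk1 (47.2% against 61.7% to 65.5%).

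The genes nearest to the tested sites were mostly poorly characterised. Predicted or noncoding gene symbols were nearest to 7160 sites, and chemosensory receptor or defensin genes to 462, of which 98.5% were masked. Of the 462, limma called 0 in all 4 comparisons, and between DIO-VSG and DIO-HFD 57 were higher (20.2% of all sites were) and 3 lower (4.85% of all) by the unadjusted threshold, with a median difference of 4.55 points against 5.40 over all tested sites. Developmental transcription factors were nearest to 81 sites, with 11 higher and 1 lower at that p, against the same 20.2% and 4.85% of all sites. Lists for the tissue itself were nearly empty here. Adipocyte genes had 1 site, near Zfp423, a regulator of adipocyte commitment, mammary epithelial genes had 7 sites, near Pgr and Trp63, and immune genes had 6. Limma called 0 of these 14 sites in all 4 comparisons, and 3 of them were higher and 1 lower in DIO-VSG than in DIO-HFD mice by that threshold (20.2% and 4.85% of all sites).

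Imprinted genes, which are expressed from 1 parental copy and marked by methylation, were nearest to 32 tested sites of 8 genes, and 0 passed by limma in the 4 comparisons. Between DIO-VSG and DIO-HFD 5 were higher and 4 lower at an unadjusted p under 0.05 (20.2% and 4.85% of all sites), and the median difference was 0.10 points, against 5.40 over all tested sites. The only run of 3 or more sites in unmasked sequence was that of 5 sites near Dlk1, whose product restrains adipocyte differentiation, on chromosome 12 from 109408806 to 109408943 and 43906 bp from the gene. It is shown with 10 bases on either side of the outer CpGs (chr12:109408796-109408954), from the mm10 forward strand with the measured CpGs in capitals.
Dlk1 run: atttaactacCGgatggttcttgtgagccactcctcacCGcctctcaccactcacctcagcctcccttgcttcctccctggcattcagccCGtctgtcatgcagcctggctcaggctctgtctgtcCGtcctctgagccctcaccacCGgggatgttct

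The Dlk1 run went against the general direction. Its mean level was 47.2%, 65.5%, 61.7% and 65.2% in DIO-HFD, 53.6%, 51.2%, 50.4% and 45.6% in DIO-VSG, 48.2%, 53.8% and 49.97% in DIO-LFD, and 52.1%, 55.7% and 60.98% in CON-LFD mice. DIO-HFD replicates 2 to 4 were above every other mouse and replicate 1 was lower than 12 of the other 13, so the groups overlapped. The smallest adjusted p of its sites between DIO-VSG and DIO-HFD was 0.162 by limma. A single unmasked site near Rasgrf1, on chromosome 9 at position 89885821, had the same direction, with 10.6%, 28.0%, 25% and 24.5% in DIO-HFD and 8.16%, 4.26%, 14.3% and 9.84% in DIO-VSG mice, and an adjusted p of 0.150 by limma. A single masked site near Peg12, on chromosome 7 at position 62488931, had the other direction, with 29.4%, 36.4%, 33.3% and 26.1% in DIO-HFD and 51.4%, 57.8%, 58.8% and 48.3% in DIO-VSG mice, and also an adjusted p of 0.150. The groups overlapped at the Rasgrf1 site and not at the Peg12 site. The 3 runs of 3 or more sites near Ndn and Snrpn and the run near Peg12 were masked. Near Ndn, the 10 sites averaged 87.1%, 78.8%, 80.8% and 72.6% in DIO-HFD and 80.8%, 82.5%, 85.3% and 83.4% in DIO-VSG mice. The 3 sites near Peg12 averaged 80.2%, 68.3%, 73.3% and 62.1% in DIO-HFD and 85.8%, 83.3%, 79.2% and 94.4% in DIO-VSG mice. The 3 sites 23368 bp from Snrpn had the other direction in the mean, with 88.1%, 75.8%, 82.4% and 87.8% in DIO-HFD and 65.2%, 79.7%, 83.3% and 78.98% in DIO-VSG mice, and the groups overlapped. The 4 sites 211036 bp from Snrpn averaged 66.6%, 72.9%, 65.4% and 67.6% in DIO-HFD and 76.5%, 80.6%, 78.4% and 80.2% in DIO-VSG mice, without overlap.

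On every one of the 19 autosomes the 4 DIO-VSG mice were above DIO-HFD replicates 2 to 4 in mean level over distant intergenic sites. The difference of the DIO-VSG and DIO-HFD means, all 4 DIO-HFD mice included, ran from 3.34 points on chromosome 10 to 5.91 on chromosome 11. These chromosomes had 84.4% and 55.2% of their sites masked.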

How the data were processed

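RRBS was measured in mammary fat of 14 mice. Alignment by the authors was to mm10 with Bismark, calls were made with methylKit, and outlier mice were removed. They deposited levels as a fraction of methylated reads per site and mouse, with no further normalization. Without read counts the depth cannot be stated, and no interval was computed. Bismark was run with default settings, under which reads that match several places equally well are dropped; reads of copies that differ at few bases were not checked. Fractions are printed as percent. The members and lists were chosen with earlier results of these data known.

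Levels b became M = log2((b + 0.01)/(1 - b + 0.01)), and limma 3.58.1 in R 4.3.3 was fitted across all 65610 sites with an SD of at least 0.05, with the 4 groups in 1 model and Benjamini-Hochberg adjustment over them. Regions were fitted alike. On simulated data for DIO-VSG minus DIO-HFD over 65610 sites, 141 of 200 distant intergenic sites changed by 4 in M were recovered and 0 of 200 changed by 2. The simulated M had no upper limit, whereas measured levels do. Its noise was independent from site to site and alike in all groups. These rates therefore do not give the power in the measured data. Replicates are separate mice. Masking, context and sequence came from the RefSeq mm10 genome (pysam 0.24.0), and sequence groups from blastn 2.17.0. No repeat annotation was used here. Python 3.11.15 with pandas 2.3.3 and Matplotlib 3.10.9 made the tables and figures.

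The rule for named sites took up to 3 called sites with the smallest p and no overlap per comparison, or the site with the smallest p, and for regions the 10 with most sites and the 5 with the smallest p per comparison with DIO-HFD, of which not all are printed. Runs near imprinted genes were added. The choice to name the single Rasgrf1 and Peg12 sites came after seeing their values. Alternatives were another offset, the level in place of M, another variance model, 2 groups only, median centring, other SD filters, other region rules, sites outside CCGG or at least 50 kb away, a block for replicate number, and the omission of each mouse in turn. Other columns of levels in the table: 0.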

Additional observations from a re-analysis of the deposited data

Results flagged for a closer look

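Groups of 4 mice were searched for a mouse apart from the other 3, by the gap to the nearest mouse divided by the range of the group, against Dixon's 95% critical value. Of 70 such groups 5 passed, and chance alone gives about 1 in 20, or 3.5. DIO-HFD replicate 1 stood apart over unmasked distant intergenic sites (66.5% against 54.7% to 55.4%, ratio 0.946), in the Tha1 region (72.7% against 37.3% to 42.7%, ratio 0.846) and in the 1700031F10Rik region (57.7% against 37.1% to 40.1%, ratio 0.856). The 3 share that mouse, which stood apart, as the highest, also in classes not among the 70, with a ratio of 0.953 over all tested sites, 0.958 over intron sites, 0.885 over exon sites and 0.911 over nearer intergenic sites. DIO-VSG replicate 3 stood apart in the 1700030N18Rik region (88.0% against 91.8% to 92.0%, ratio 0.945), and DIO-VSG replicate 2 in the Gm13794 region (90.1% against 93.5% to 93.6%, ratio 0.960).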

How the results depend on the processing

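Most calls against DIO-HFD appeared only when DIO-HFD replicate 1 was left out. Each mouse was left out in turn, but that mouse was singled out by its own levels. Adjusted p-values and counts without it therefore describe dependence on that mouse and are no test of the groups. Leaving out each mouse in turn gave 0 to 790 sites called for CON-LFD against DIO-HFD, 0 to 867 for DIO-LFD, 1 to 2444 for DIO-VSG and 0 to 6 for DIO-VSG against DIO-LFD, and 0 to 367, 0 to 323 and 0 to 625 regions in the first 3, with the upper end of each of the counts against DIO-HFD reached without that mouse. Without CON-LFD replicate 1 the count for CON-LFD was 5, without DIO-LFD replicate 2 that for DIO-LFD was 4, and without DIO-VSG replicate 2 those for DIO-VSG were 9 and 6. The differences of the mean level ran from 2.62 to 5.83, 2.23 to 5.44, 3.54 to 6.75 and 0.893 to 1.80 points. With an SD of at least 0.1 they were 7.01 (CON-LFD), 6.27 (DIO-LFD), 8.83 (DIO-VSG against DIO-HFD) and 2.55 (DIO-VSG against DIO-LFD), in place of 3.88, 3.48, 4.80 and 1.31. For DIO-LFD against DIO-HFD, 4 sites were called with 2 groups only and 1 with centring, in place of 0. For DIO-VSG against DIO-HFD, 9 were called with 2 groups only and 0 with the level in place of M, trend and robust variance, an SD of at least 0.1 or outside CCGG, in place of 1. For DIO-VSG against DIO-LFD, 11 were called with 2 groups only, 1 with no SD filter or at least 50 kb away, and 0 with the larger offset, the level, trend and robust variance, an SD of at least 0.1 or outside CCGG, in place of 2. The cause was not tested. With the replicate number as a block, 0, 0, 1 and 0 sites were called in the 4 comparisons. The numbers come from different mice. Of 19 same-numbered pairs, 3 had a correlation of deviations over 0.1 (from -0.09 to 0.21), the highest that of DIO-HFD replicate 1 with DIO-LFD replicate 1. Of 14 mice, 6 correlated best with their own number. The count to be had by chance was not computed, so a structure shared by number was not tested. With each mouse omitted, the counts below an unadjusted p of 0.05 ran from 708 (without CON-LFD replicate 2) to 2609 sites for CON-LFD against DIO-HFD, from 827 to 2585 for DIO-LFD, from 1556 to 3791 for DIO-VSG and from 589 to 906 between DIO-VSG and DIO-LFD. For regions they ran from 109 (CON-LFD replicate 2 left out, or 111 with replicate 3 of DIO-HFD left out) to 545, from 80 (DIO-HFD replicate 3 left out, or 99 with its replicate 4 and 98 with the first DIO-LFD mouse left out) to 514, from 261 (without DIO-HFD replicate 3) to 732 and from 38 (without DIO-VSG replicate 4) to 105. Each upper end was reached without DIO-HFD replicate 1. None of the named sites or of the regions with the smallest p changed direction under the settings run on them. The 10 largest regions and the runs near imprinted genes were run only without each mouse of DIO-HFD and DIO-VSG in turn. There the DIO-VSG minus DIO-HFD difference of the Gm26454 region turned from 1.83 to -0.39 points without DIO-HFD replicate 3. That of the Gm43994 region turned from 0.29 to -0.54, -0.58, -0.13 and -0.15 points when replicate 2 or 4 of DIO-HFD, or replicate 1 or 4 of DIO-VSG, was left out. That of the 2 sites near Slc38a4 turned from -0.16 to between 0.07 and 2.00 points without 5 of the 8 mice. No other region or run of these turned. Levels listed at 0 or 100% may rest on few reads. For DIO-VSG minus DIO-HFD, 0 of 200 simulated sites changed by 2 in M were recovered, and 141 of 200 changed by 4. The simulation had simpler noise than the data and no upper limit of M, so it does not give the power. How far group size set the number of calls was not tested.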
